A study of Mus musculus with 3 samples.

Results

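Proliferating lymphatic endothelial cells of the mouse small intestine were picked out of 3 droplet libraries by their own transcripts. A lymphatic endothelial cell (LEC) was a barcode with at least 500 detected genes, at most 15% mitochondrial counts, at least 1 Prox1 and 5 Lyve1 unique molecular identifiers (UMIs, which count captured RNA molecules), no Ptprc or Epcam UMI and at most 2 Dcn UMIs. A LEC with 2 or more UMIs of Mki67 plus Top2a was called proliferating. This gave 274 proliferating cells among 17975 LEC and 22534 cells kept, with 94, 81 and 99 in libraries 1, 2 and 3. They were set against the 17247 LEC of the same libraries that held no Mki67 or Top2a UMI (5329, 4227 and 7691). The other 454 LEC, with 1 such UMI, entered neither class.

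All 3 libraries form 1 group, and no treatment or genotype was compared. Each was made from the small intestine without its duodenum, pooled from 4 wild-type C57Bl/6 females of 9 to 10 weeks of age. Epithelium was stripped and the rest digested at 37 °C, and live nucleated CD45- CD31+ podoplanin+ cells were sorted in enrichment mode, so that the libraries also held other cells. The labels do not say whether the pools shared animals. The p-values thus rest only on how the difference between the classes varies over these libraries, and that spread may be technical.

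Lymphatic endothelial cells line the vessels that drain tissue fluid and carry absorbed fat and immune cells away from the gut, and the transcription factor Prox1 keeps their identity. In the adult most of them rest outside the cell cycle, and growth is driven mainly by VEGF-C acting on the receptor Flt4. A cell that enters the cycle first turns on E2F target genes for DNA replication, then histone genes during S phase, and then the cyclin B, spindle and kinetochore genes of mitosis. Mki67 coats mitotic chromosomes and Top2a untangles sister DNA, and both peak late in the cycle.

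The libraries held 6359, 6707 and 9468 kept cells, of which 87.6%, 66.4% and 84.0% were LEC. Barcodes shared between libraries numbered 19, 13 and 30 for libraries 1 and 2, 1 and 3, and 2 and 3, and 2 of them belonged to a proliferating cell in either library. Scrublet, a doublet caller, marked 1, 5 and 1 cells where 5.09%, 5.37% and 7.57% would be expected at this loading, so it did not work here and no cell was removed on its call. Among all kept cells 642 had 2 or more Mki67 and Top2a UMIs, 382 of these had a Prox1 UMI, and the proliferating LEC made up 42.7% of the 642.

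Proliferating cells were a small share of LEC in every library. In library 1 they were 1.69% of LEC (1.37 to 2.06%, 95% exact binomial), in library 2 they were 1.82% (1.45 to 2.26%) and in library 3 they were 1.25% (1.01 to 1.51%), with a mean of 1.58% ± 0.30 (SD, n = 3 libraries). These intervals cover counting error only. The proliferating cells were also deeper: their median was 12666.5, 10956 and 11883 UMIs per cell, against 8049, 7028 and 6713 in the comparison LEC. They held a median of 3818 ± 179 detected genes, against 2685 ± 215 (mean of the library medians ± SD). With every cell thinned to 5000 UMIs before the call, the mean share was 1.35%.

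The transcripts that chose the cells are given as a description. Mki67 stood at 929, 1126 and 907 CPM (CPM, a gene's count scaled to 1000000 UMIs of the sum) and Top2a at 809, 788 and 779 CPM in the proliferating cells, and both at 0 in the comparison LEC by construction. Prox1 stood at 752, 715 and 624 CPM in proliferating cells, against 909, 743 and 754 CPM in comparison LEC, so the ranges of the classes overlap. The mean count of Prox1 per cell was 8.99 UMIs in proliferating cells and 6.15 in comparison LEC. Lyve1, a hyaluronan receptor, stood at 2983 ± 437 CPM against 4296 ± 428 CPM (SD, n = 3 libraries each). Of the 5 further lymphatic markers, Flt4, Pdpn, Ccl21a and Reln were present in both classes in every library. Mmrn1 had 0 UMIs in every class, and the mRNA of another marker, CD31 (Pecam1), stood at 514 ± 37.2 CPM against 533 ± 18.3 CPM. The cells thus carried the lymphatic markers that their name calls for, apart from Mmrn1.

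The Mki67 and Top2a count differed widely between the proliferating cells. Of the 274 cells, 73 had 2 UMIs, 33 had 3, 40 had 4 to 9, 50 had 10 to 29 and 78 had 30 or more. The 128 cells with 10 or more (47, 36 and 45 by library) and the 146 with 2 to 9 (47, 45 and 54) were also fitted apart, a split made after the values were seen. The other cycle genes did not sit evenly over this scale. The summed level of 55 G2/M and kinetochore genes, pooled over libraries, was 364 CPM at 0 UMIs, 426 at 1, 472 at 2, 1027 at 3, 3055 at 4 to 9, 6003 at 10 to 29 and 11162 at 30 or more. Just inside the threshold, cells with 2 UMIs had a median of 3 UMIs of these genes, which was also the median just outside it at 1 UMI, against 2 at 0 UMIs. At least 5 UMIs of these genes were held by 42.5% of the cells with 2 UMIs, 30.2% of those with 1 and 18.1% of comparison LEC. Median depth was 8995, 8782 and 7129 UMIs, in that order. Ccnb1, Ccnb2, Cdc20, Plk1 and Aurka alone summed to 25.2, 21.2 and 30.2 CPM by library at 2 UMIs. They summed to 22.9, 25.4 and 8.16 CPM at 1 UMI and to 3.93, 4.82 and 3.33 CPM at 0. Of the 73 cells with 2 UMIs, 1 held 5 or more UMIs of these late genes. Cells with 2 UMIs thus lay above comparison LEC in other mitotic transcripts, and far below the 128 cells. They were not clearly apart from cells with 1 UMI.

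**Figure D1:**
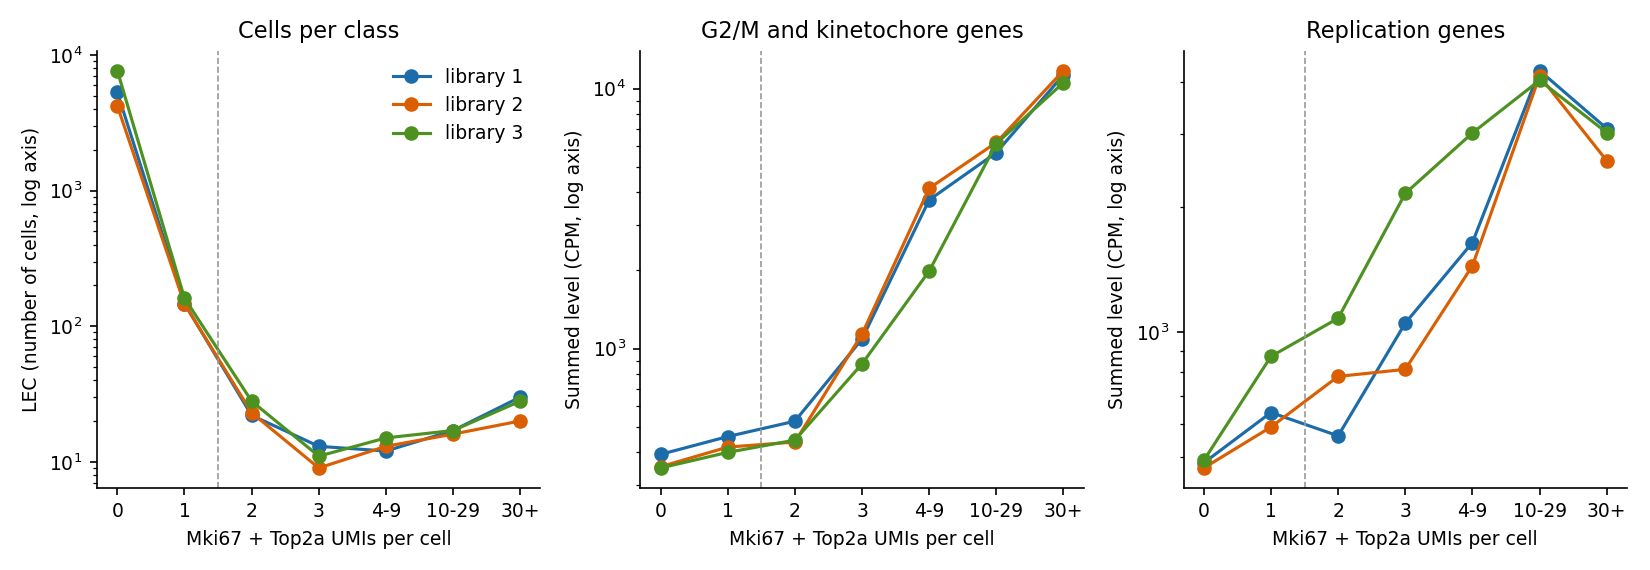
Number of LEC (left), summed CPM of the G2/M and kinetochore lists (middle) and of the replication list (right) by the Mki67 plus Top2a UMIs of the cell, 1 line per library, all vertical axes logarithmic. The dashed line marks the threshold of 2 UMIs. In these classes of unequal width 73 cells lie at 2 UMIs and 78 at 30 or more, the mitotic genes climb to 11162 CPM (pooled) at 30 or more, and the replication genes are highest at 10 to 29.

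Library sums of the 2 classes were compared with edgeR's quasi-likelihood test, with library as a block. Of 12814 genes tested, 2013 were higher in proliferating LEC (15.7%) and 1878 lower (14.7%) at a Benjamini-Hochberg adjusted p under 0.05, with a median log2 fold change of -0.04. With 1 as the smallest log2 change, 888 were higher and 279 lower. In the 128 cells with 10 or more UMIs 16.9% of genes were higher and 17.7% lower, and in the 146 with 2 to 9 UMIs 3.51% and 3.37%. Of 3771 called genes that could be fitted in these 146 cells, 803 were called there with the same sign and 293 had the opposite sign. Gene lists below are read against these shares. Whether or not a gene was called, the library sums of the 2 classes did not overlap for 3140 of the 12814 genes on the higher side. On the lower side they did not overlap for 2053. Lack of overlap, as given for single genes below, was thus common. Genes of the cell cycle go together with Mki67 and Top2a, so their counts describe where in the cycle the cells were and are no independent evidence that they cycled.

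**Figure D2:**
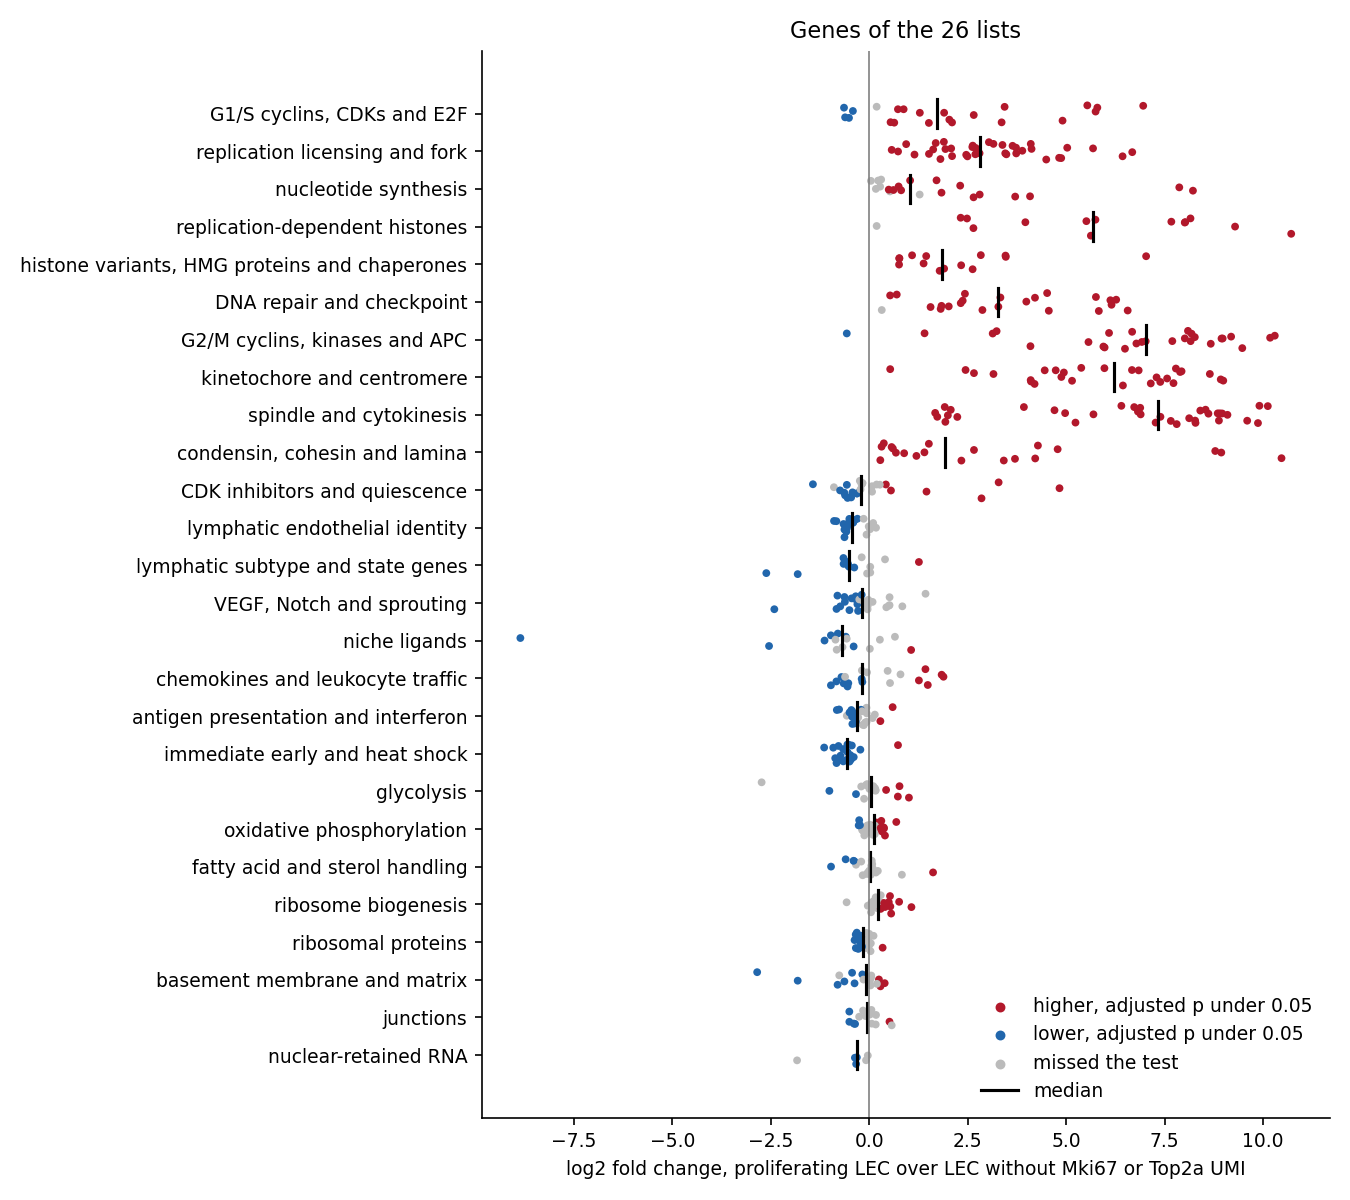
Log2 fold change of each tested gene of the 26 lists, proliferating LEC over LEC without Mki67 or Top2a UMI, 1 point per gene; red and blue points passed edgeR's test at an adjusted p of 0.05, grey points did not, and black bars are medians. The 10 cycle lists lie to the right, with medians up to 7.33, the lymphatic, niche and immediate early lists lie left of 0, and the leftmost point is Grem1, with 0 UMIs in proliferating LEC.

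Of the G1/S list, which holds the cyclins, kinases and E2F factors that start the cycle, 17 of 22 genes were higher, 4 were lower and 1 (Rbl2) missed the test. Ccne2, a cyclin E that activates Cdk2, stood at 89.8, 69.3 and 75.9 CPM in proliferating LEC, against 1.09, 1.82 and 1.31 CPM in comparison LEC. Ccne1 averaged 27.3 against 0.218 CPM and E2f2, an activating E2F, 28.8 against 0.497 CPM. The D-type cyclins, which respond to growth factors, moved in both directions. Ccnd1 stood at 269, 264 and 269.8 CPM in proliferating LEC, against 336, 330.3 and 341 CPM in comparison LEC (log2 fold change -0.42 ± 0.07 (SE), adjusted p = 6.6e-05). Ccnd2 and the cyclin D kinase Cdk6 were lower as well, at 264 against 355 CPM and 113 against 166 CPM, while Ccnd3 and Cdk4 were higher at 57.7 against 37.3 CPM and 128 against 77.6 CPM. Across the Mki67 and Top2a scale the pooled Ccnd1 level was 337 CPM at 0 UMIs, 352 at 2, 321 at 4 to 9, 285 at 10 to 29 and 172 at 30 or more, so that the low level lay in the cells richest in these transcripts. Myc, the fourth gene that was lower, averaged 15.7 against 23.2 CPM.

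All 37 genes of the replication list were higher, with a median log2 fold change of 2.80. The list holds the MCM helicase, its loaders and the fork proteins, and its summed level was 2378, 2146 and 2703 CPM in proliferating LEC, against 484, 471 and 491 CPM in comparison LEC. Mcm5, a subunit of the replicative helicase, stood at 85.1, 77.4 and 83.1 CPM, against 6.13, 6.23 and 5.16 CPM. Cdc6, which loads that helicase, stood at 28.9, 21.1 and 26.1 CPM, against 0.289, 0.671 and 0.485 CPM. The groups do not overlap for either gene. Uhrf1, which carries DNA methylation through replication, averaged 94.1 against 0.89 CPM, and Clspn, a fork checkpoint adaptor, 103 against 1.12 CPM. In the cells with 2 to 9 UMIs, 32 of the 36 genes tested there were higher as well.

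Of 21 genes for nucleotide synthesis 14 were higher and none lower, among them Rrm2 (123 against 0.385 CPM), the ribonucleotide reductase subunit that S phase needs, and the thymidine kinase Tk1 (112 against 0.453 CPM). Mthfd2, a folate enzyme of mitochondria, averaged 42.8 against 2.41 CPM. The genes that missed the test were mainly those of purine and one-carbon metabolism, such as Gmps at 48.2 against 44.2 CPM and Paics at 97.1 against 81.6 CPM. Of the DNA repair and checkpoint list 22 of 23 genes were higher, such as Brca1 (69 against 0.715 CPM) of homologous recombination and Fancd2 (20.3 against 0.352 CPM) of crosslink repair.

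Most histone genes of S phase were near 0 in comparison LEC. Hist1h1b, which codes for a linker histone, stood at 442, 537 and 694 CPM in proliferating LEC, against 0.377, 1.72 and 0.701 CPM in comparison LEC. Of 15 such genes 14 were tested and 13 were higher, and Hist1h1c, the one that missed the test, averaged 216 ± 8.64 against 179.6 ± 28.7 CPM (SD, n = 3 libraries each). Hist1h3c (90.4 against 0.0499 CPM) and Hist1h2ap (156 against 0.528 CPM) were among those higher. Most of these mRNAs carry no poly(A) tail, which the library chemistry relies on, and histone copies are alike, so single-gene levels are uncertain. Their summed level was far from even over the members: it was 276 CPM at 2 UMIs of Mki67 and Top2a, 430 at 4 to 9, 1604 at 10 to 29 and 5370 at 30 or more, against 296 CPM in comparison LEC. Hist1h1c made up 178 CPM of that sum in comparison LEC and 141 CPM at 2 UMIs. Hist1h1b alone, pooled, was 0.834 CPM at 0 UMIs, 9.00 at 2 and 35.7 at 4 to 9. In the 2 to 9 class 3 of 9 tested histone genes were higher and 6 missed the test. All 14 histone variants, HMG proteins and histone chaperones were higher, including Hmgb2 (1187 against 101 CPM), H2afx (161 against 13.7 CPM) and the chaperone Asf1b (45.4 against 0.337 CPM).

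The lists of G2 and mitosis had the largest median differences of the 26 lists. Of the 27 cyclins, kinases and APC genes 26 were higher, with a median log2 fold change of 7.02, and of the spindle and kinetochore lists all 36 and all 28 were higher, with medians of 7.33 and 6.21. Ube2c, the ubiquitin-conjugating enzyme of the anaphase-promoting complex, stood at 412, 375 and 328 CPM in proliferating LEC, against 0.355, 0.894 and 0.342 CPM in comparison LEC. Ccnb2, a cyclin B that drives entry into mitosis, stood at 221, 245 and 189.9 CPM, against 1.18, 0.894 and 0.378 CPM. Cdc20, which activates the same complex, stood at 231, 253 and 203 CPM, against 1.93, 2.17 and 2.14 CPM. No library of either class overlaps the other for these 3 genes. The mitotic kinases Pbk and Bub1 averaged 89.2 against 0.0726 CPM and 64.6 against 0.06 CPM, the kinetochore proteins Cenpf and Nuf2 925 against 1.72 CPM and 73 against 0.135 CPM, and Ska1 41.8 against 0.112 CPM. The spindle genes Hmmr, Kif2c and Iqgap3 averaged 233 against 0.206 CPM, 45.5 against 0.0388 CPM and 120.2 against 0.105 CPM. All 20 genes of condensin, cohesin and the lamina were higher too, led by Esco2 (133 against 0.0823 CPM), which acetylates cohesin, Ncapg (65.9 against 0.126 CPM) and Cdca5 (39.6 against 0.0827 CPM). Securin, encoded by Pttg1 and kept until anaphase, was the exception, at 44.5, 53.2 and 36.4 CPM in proliferating LEC, against 59.1, 63.4 and 63 CPM in comparison LEC. The call was lost with thinned cells (adjusted p = 0.066) and with 2 to 9 UMIs (adjusted p = 0.19).

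Single cells were also counted, pooled over the 3 libraries and in the class they had before thinning. The intervals cover counting error only and not the spread between libraries. With every cell thinned to 5000 UMIs, which left out 9 proliferating and 2600 comparison cells as too shallow, Ccna2 was seen in 36.6% of proliferating LEC (95% exact interval 30.8 to 42.7%) and in 0.150% of comparison LEC (0.0942 to 0.227%). Among the cells with 10 or more UMIs that share was 67.7% (58.8 to 75.7%). Birc5, a subunit of the chromosomal passenger complex, was seen in 47.9% against 0.232%, and Cdc6 in 9.06% against 0.205%. Unthinned, the Ccna2 shares were 47.8% and 0.238%. Median depth before thinning differed between the classes as given above.

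The 128 cells with 10 or more UMIs spread along the cycle. When they were grouped by the UMIs of 5 late mitotic genes (Ccnb1, Ccnb2, Cdc20, Plk1 and Aurka), 37 cells had 0 to 4, 47 had 5 to 19 and 44 had 20 or more. The summed replication level was 6208, 3435 and 1230 CPM over these 3 groups, and the histone level 2989, 5875 and 3429 CPM. The order of the replication levels held in each library, with 6468, 3618 and 1389 CPM in library 1, 7343, 3368 and 1013 in library 2, and 5411, 3331 and 1232 in library 3. Replication genes were thus highest where mitotic genes were lowest, and histone genes were highest in between. Over the 128 cells the rank correlation of the replication and late mitotic shares of the cell's UMIs, given as a description, was -0.80, against -0.11 over all 274 proliferating cells, and the cells share libraries and differ in depth. All 3 groups came from all 3 libraries, with 13, 8 and 16 cells at 0 to 4, 16, 14 and 17 at 5 to 19, and 18, 14 and 12 at 20 or more.

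**Figure D3:**
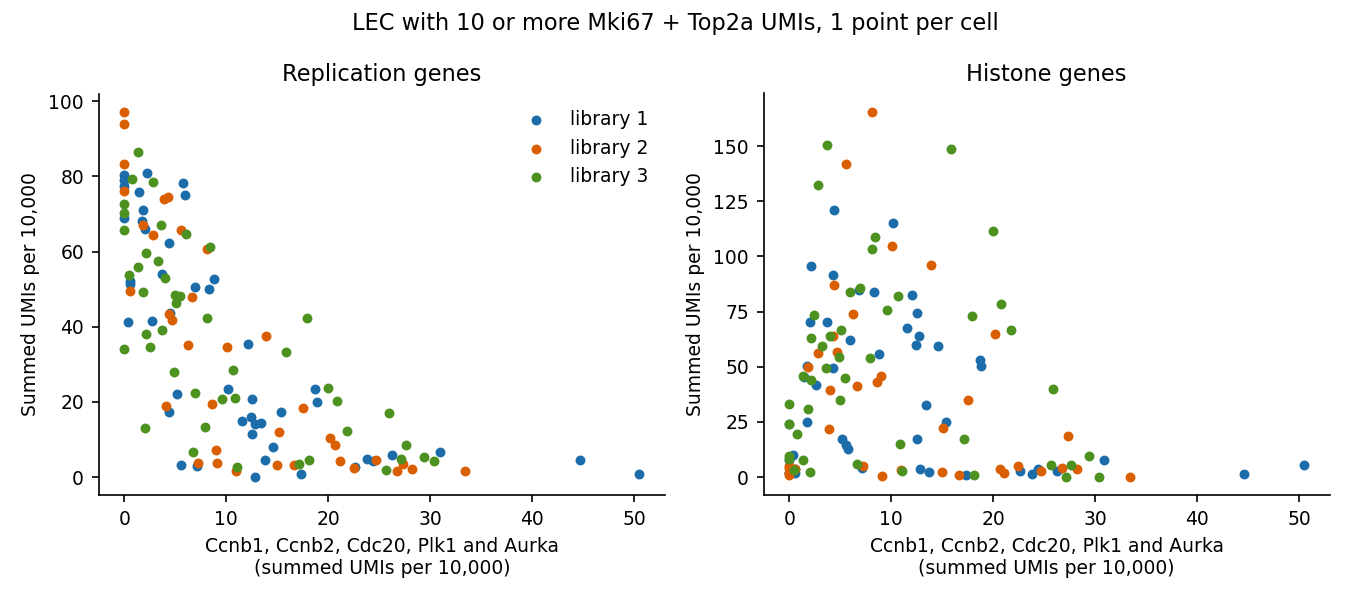
The 128 proliferating LEC with 10 or more Mki67 and Top2a UMIs, 1 point per cell and coloured by library, with the summed UMIs of Ccnb1, Ccnb2, Cdc20, Plk1 and Aurka per 10000 UMIs of the cell on the horizontal axes and those of the replication list (left) or the histone list (right) on the vertical axes. Cells with high replication levels sit at low mitotic levels (rank correlation -0.80, against -0.11 over all 274 proliferating cells). Cells of all 3 libraries lie along most of the range, and the highest mitotic levels (50.5 and 44.6 per 10000) are in library 1 only.

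Promoter sequences are shown for 3 mitotic and 2 replication genes, to show the motifs whose shares are given after them. All are the 250 bases before the first listed start in RefSeq on GRCm38.p6, read 5′ to 3′ on the strand of the gene, with matches in capitals. The motifs searched, on both strands, were the cell cycle homology region TTTGAA (CHR, bound by the DREAM and MuvB complexes of late cycle genes), the CCAAT box CCAAT, and the E2F forms TTTGGCGC, TTTGCCGC, TTTCGCGC and TTTCCCGC. Ccnb2 (chr9:70421555-70421804, minus strand), Cdc20 (chr4:118437344-118437593, minus strand) and Ube2c (chr2:164769679-164769928, plus strand) hold a CHR and CCAAT boxes. Mcm5 (chr8:75109259-75109508, plus strand) and Cdc6 (chr11:98907901-98908150, plus strand) hold E2F forms, and Mcm5 also CCAAT boxes. In the GENCODE annotation Cdc6 starts earlier, at 98907801, so its window lies inside that gene model. In Ube2c a CCAAT box on 1 strand overlaps one on the other, and in Mcm5 an E2F form on each strand overlaps in 1 run.
Ccnb2: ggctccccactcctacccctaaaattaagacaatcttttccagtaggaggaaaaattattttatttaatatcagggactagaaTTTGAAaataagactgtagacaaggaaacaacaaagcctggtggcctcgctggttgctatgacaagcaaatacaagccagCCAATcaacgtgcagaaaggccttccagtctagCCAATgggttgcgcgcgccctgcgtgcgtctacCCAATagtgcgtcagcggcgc
Cdc20: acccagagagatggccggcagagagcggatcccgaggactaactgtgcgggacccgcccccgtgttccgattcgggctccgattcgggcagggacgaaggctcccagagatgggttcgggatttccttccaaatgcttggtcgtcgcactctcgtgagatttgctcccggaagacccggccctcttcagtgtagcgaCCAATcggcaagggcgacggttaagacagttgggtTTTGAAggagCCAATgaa
Ube2c: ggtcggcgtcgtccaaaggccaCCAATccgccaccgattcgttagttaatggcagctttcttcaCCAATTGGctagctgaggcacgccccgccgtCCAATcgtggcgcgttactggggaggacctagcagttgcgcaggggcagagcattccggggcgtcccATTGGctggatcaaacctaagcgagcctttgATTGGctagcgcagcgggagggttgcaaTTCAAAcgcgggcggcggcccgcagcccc
Mcm5: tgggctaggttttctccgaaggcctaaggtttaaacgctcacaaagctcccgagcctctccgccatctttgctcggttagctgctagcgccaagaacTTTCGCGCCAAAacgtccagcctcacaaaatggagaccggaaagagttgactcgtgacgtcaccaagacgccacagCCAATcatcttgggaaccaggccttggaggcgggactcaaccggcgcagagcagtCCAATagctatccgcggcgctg
Cdc6: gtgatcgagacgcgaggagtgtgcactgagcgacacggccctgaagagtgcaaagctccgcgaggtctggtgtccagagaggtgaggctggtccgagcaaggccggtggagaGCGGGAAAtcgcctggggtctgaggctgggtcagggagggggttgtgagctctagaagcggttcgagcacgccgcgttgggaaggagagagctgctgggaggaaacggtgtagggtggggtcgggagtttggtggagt

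Over whole lists, in windows of 250 bases before to 50 after the start, the CHR was found in 22 of 30 spindle genes with a promoter in the table (73.3%), in 10 of 21 genes of the G2/M list (47.6%), in 10 of 24 kinetochore genes (41.7%) and in 5 of 29 replication genes (17.2%). The CHR was also found in 6 of 17 G1/S genes (35.3%) and in 3 of 10 niche ligands (30%). It was found in 11.9% of the 9831 tested genes matched and in 18.1% of all 27025 promoters of the table. An E2F form was found in 12 of 29 replication genes (41.4%), in 8 of 17 G1/S genes (47.1%) and in 1 of 30 spindle genes (3.33%), against 4.32% of tested genes and 2.32% of all promoters. CCAAT was found in 17 of 21 G2/M genes (81.0%), against 39.3% and 37.9%. It was not particular to that list, with 20 of 29 replication genes (69.0%), 12 of 20 antigen presentation genes (60%) and 14 of 24 oxidative phosphorylation genes (58.3%). Of the lymphatic identity genes 5 of 16 held it. Of 16 lymphatic identity genes matched, 1 held a CHR and 0 an E2F form, and none of the 15 histone genes was matched. A match is a string of letters and not a bound site.

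**Figure D4:**
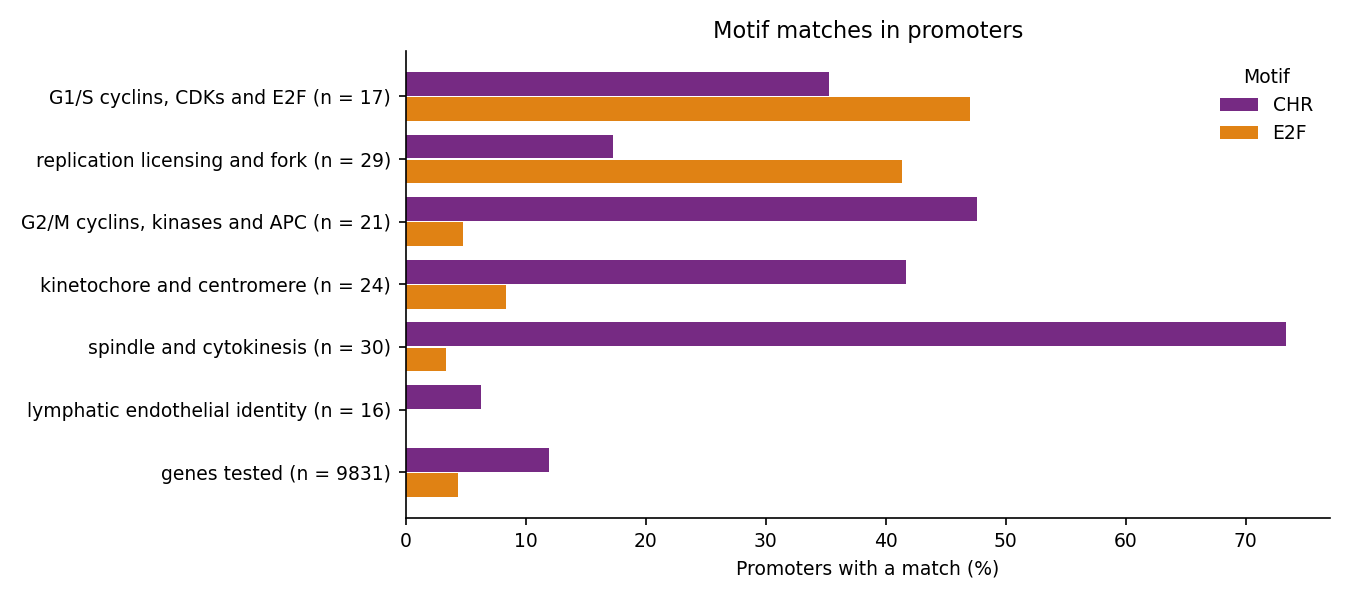
Percent of promoters (250 bases before to 50 after the start) that hold a CHR or an E2F form on either strand, for 6 gene lists and for all tested genes matched to the table, with the number of promoters in brackets. The CHR bar is longest for the spindle list (73.3%) and the E2F bars for the G1/S and replication lists (47.1% and 41.4%).

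Inhibitors of cyclin-dependent kinases moved in both directions. Of 26 inhibitors and quiescence genes 6 were higher, 10 lower and 10 missed the test, against 15.7% and 14.7% over all genes. Cdkn2c, an inhibitor of Cdk4 and Cdk6 that is known to be an E2F target, stood at 184, 127 and 128 CPM in proliferating LEC, against 13.7, 14.8 and 13.8 CPM in comparison LEC (log2 fold change 3.29 ± 0.12 (SE), adjusted p = 3.4e-16). The higher level lay in the cells with 10 or more UMIs, at 301, 217 and 229.7 CPM, while those with 2 to 9 had a log2 fold change of 0.03 (adjusted p = 0.98). Cdkn2d, of the same family, averaged 126 against 16.3 CPM. Cdkn1a, the p21 inhibitor, stood at 607, 594 and 573 CPM, against 384, 427 and 435 CPM (log2 fold change 0.42 ± 0.07 (SE), adjusted p = 3.6e-05), and Cdkn1b, p27, at 164, 201 and 147 CPM, against 121, 101 and 104 CPM (log2 fold change 0.55 ± 0.09 (SE), adjusted p = 5.2e-05). Neither pair of groups overlaps, but in the cells with 2 to 9 UMIs both calls were lost (log2 fold change 0.12, adjusted p = 0.53 for Cdkn1a and 0.25, adjusted p = 0.28 for Cdkn1b). Cdkn1c, p57, went the other way, at 10.2, 16.1 and 11.1 CPM in proliferating LEC, against 24.6, 33.3 and 35.3 CPM in comparison LEC (log2 fold change -1.43 ± 0.19 (SE), adjusted p = 3.0e-06). It was lower in the 2 to 9 class as well (log2 fold change -1.31, adjusted p = 3.4e-04).

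Several genes of the same list that are tied to rest were lower, and whether the cells had left rest was not tested. Nor were these lower levels separated from those of the immediate early genes given below. Klf2, a transcription factor induced by flow, stood at 1204, 759 and 1024 CPM in proliferating LEC, against 1918, 980.5 and 1342 CPM in comparison LEC. It was lower in all 3 libraries (log2 fold change -0.57 ± 0.07 (SE), adjusted p = 2.9e-07), but the ranges of the classes overlap, and the call was lost without library as a block (adjusted p = 0.0696). Klf4 (852 against 1328 CPM), the antiproliferative Btg2 (978 against 1235 CPM), Txnip (884 against 1291 CPM) and the transcription factor Foxo1 (169 against 198 CPM) were also lower. The remaining 2 genes higher in the list, Cdkn2a and Gas1, were rare, at 3.22 against 0.116 CPM and 4.10 against 1.37 CPM.

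Genes that define lymphatic endothelium had lower CPM, though present. Of 22 such genes 21 were tested, of which 15 were lower, none was higher and 6 missed the test, with a median log2 fold change of -0.45, against -0.04 over all genes. Flt4, the receptor for VEGF-C, stood at 1128, 1042 and 1061 CPM in proliferating LEC, against 1681, 1558 and 1467 CPM in comparison LEC (log2 fold change -0.63 ± 0.06 (SE), adjusted p = 1.4e-08). Reln, a secreted glycoprotein of lymphatic endothelium, stood at 1139, 1071 and 1043 CPM, against 1977, 1751 and 1733 CPM (log2 fold change -0.84 ± 0.06 (SE), adjusted p = 6.4e-11). Pdpn, on which the cells were sorted, stood at 205, 179.8 and 148 CPM, against 264, 261 and 248 CPM (log2 fold change -0.63 ± 0.08 (SE), adjusted p = 2.1e-06). In each of these genes every proliferating library lay below every comparison library. Ccl21a, the ligand that draws dendritic cells into lymphatics, averaged 7811 ± 735 against 10632 ± 1217 CPM (SD, n = 3 libraries each; log2 fold change -0.53, adjusted p = 9.0e-08), and near-identical Ccl21 copies make its counts uncertain.

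CPM is relative to the total UMIs, which were more per cell in proliferating LEC. Counted per cell, proliferating LEC held a mean of 13.9 Flt4 UMIs against 11.95 in comparison LEC. The means were 14 against 13.9 for Reln and 2.30 against 1.96 for Pdpn. These raw counts were not lower, but they compare cells of unequal depth. For equal depth, 5 comparison cells were drawn per proliferating cell at matched total UMIs. Then 16 of the 21 genes were lower and 1 (Egfl7) higher, where 14.6% of all genes were lower. Flt4 had a log2 fold change of -0.53 (adjusted p = 2.1e-08, edgeR). Reln had -0.78 (adjusted p = 5.6e-13) and Pdpn -0.53 (adjusted p = 4.7e-06), so all 3 were lower at matched depth. The level fell along the Mki67 and Top2a scale: pooled Flt4 was 1562 CPM at 0 UMIs, 1449 at 2, 1027 at 4 to 9 and 863 at 30 or more. The pan-endothelial genes Pecam1 and Cdh5 missed the test, at 514 against 533 CPM and 598 against 553 CPM, and so did Nrp2 at 1409.7 against 1392 CPM. Of the transcription factors, Sox18, Nr2f2 and Maf were lower at 103 against 134 CPM, 535 against 664 CPM and 854 against 1205 CPM.

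**Figure D5:**
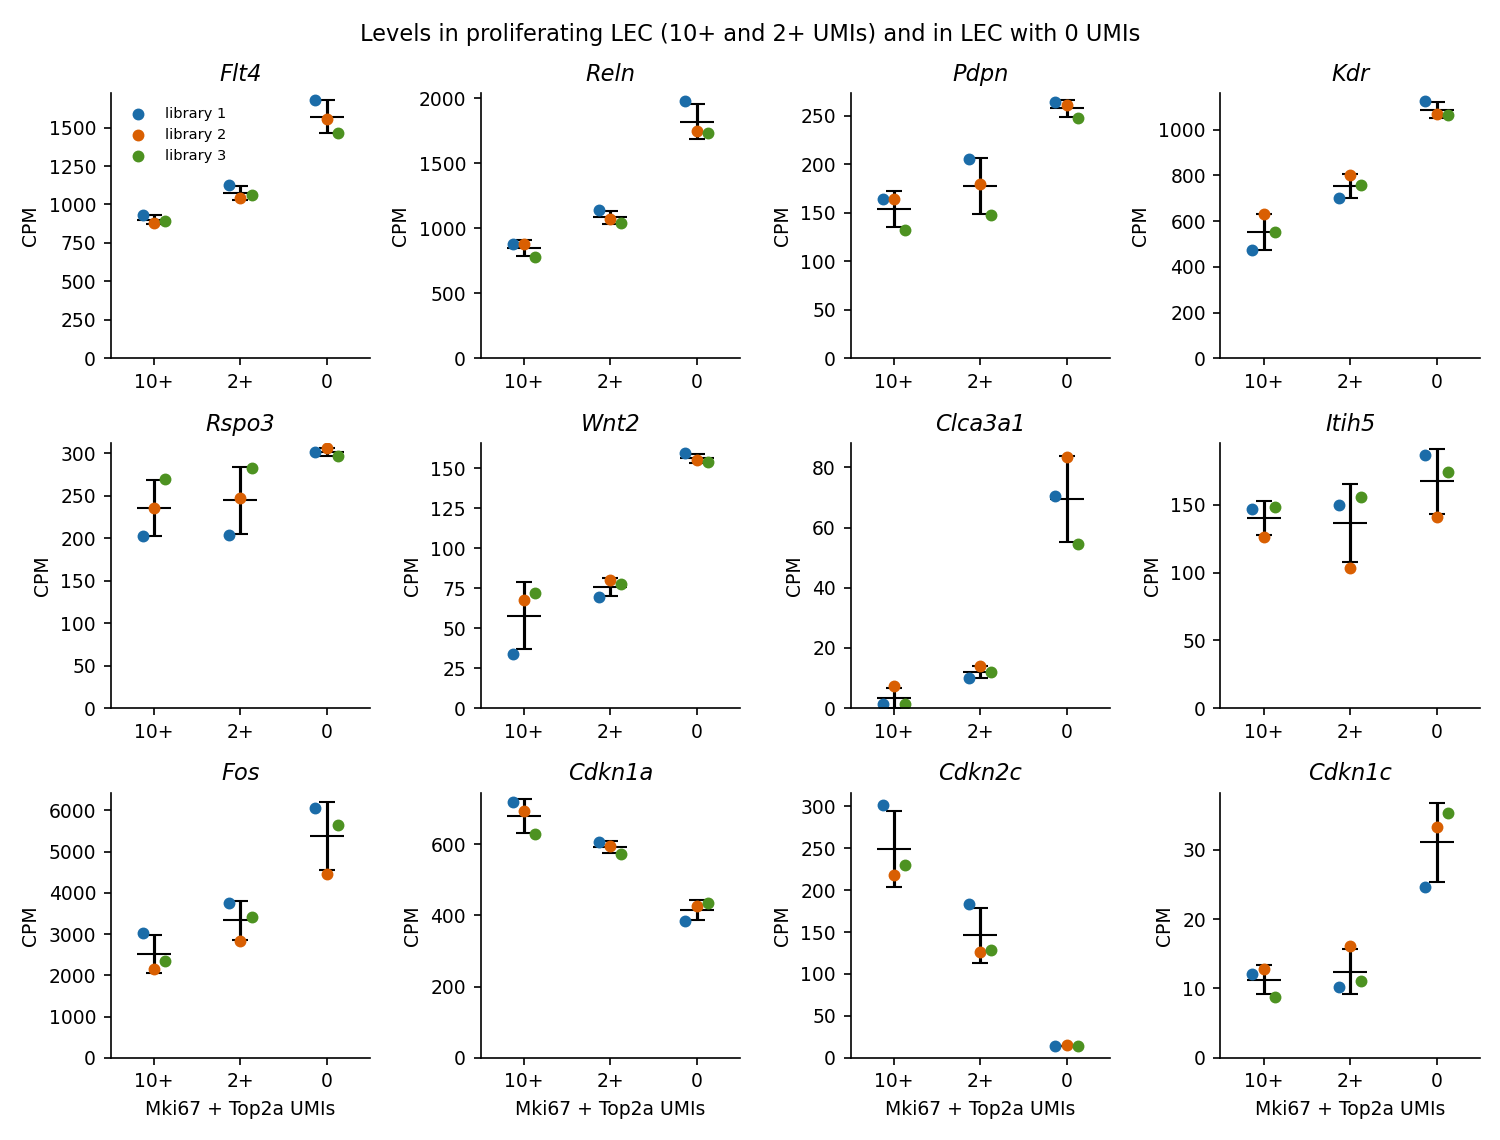
CPM of 12 genes in proliferating LEC with 10 or more and with 2 or more Mki67 and Top2a UMIs and in LEC with 0, 1 point per library, with the mean and SD over 3 libraries; each vertical axis starts at 0. Flt4, Reln, Pdpn, Kdr, Wnt2, Clca3a1 and Fos are lowest at 10 or more and highest at 0, while Cdkn1a and Cdkn2c run the other way.

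Markers of lymphatic subtypes and states were mostly lower. Of 15 such genes tested 9 were lower, 1 was higher and 5 missed the test. Clca3a1, a surface protein of mouse lymphatic endothelium, stood at 10.2, 14.1 and 11.9 CPM in proliferating LEC, against 70.5, 83.3 and 54.6 CPM in comparison LEC (log2 fold change -2.62 ± 0.17 (SE), adjusted p = 9.1e-12). In the cells with 10 or more UMIs it stood at 1.35, 7.31 and 1.47 CPM. In cells thinned to 5000 UMIs and pooled over libraries it was seen in 6.04% of proliferating LEC (95% exact interval 3.49 to 9.62%, counting error only) and 20.7% of comparison LEC (20.1 to 21.4%). Among cells with 10 or more UMIs 1 of 127 held it, or 0.787% (0.0199 to 4.31%). The unthinned shares were 10.9% and 25.7%. Itih5, a hyaluronan-binding matrix protein, was seen in 40.0% of proliferating and 39.9% of comparison LEC thinned in the same way, and stood at 136 ± 28.7 against 167 ± 23.9 CPM (SD, n = 3 libraries each), with overlapping ranges but a call (log2 fold change -0.38 ± 0.09 (SE), adjusted p = 0.0013). Tgfbi averaged 11.9 against 41 CPM, Aqp1 1424 against 2107 CPM and Piezo2, a mechanosensitive channel, 111 against 163 CPM. Foxc2 and Gata2, which lymphatic valves need, missed the test at 19.3 against 18.8 CPM and 28.6 against 25.6 CPM, and Cldn11, another valve gene, was lower at 13.8 against 18.7 CPM. The gene that was higher was the interferon-induced chemokine Cxcl9, at 95.3, 5.02 and 46.7 CPM, against 16.2, 21.4 and 22.2 CPM, so in library 2 it lay below the comparison LEC. Of the 274 cells 3 held 5 or more Cxcl9 UMIs and 2 held 20 or more, and in the cells with 2 to 9 Mki67 and Top2a UMIs the log2 fold change was -2.73 (adjusted p = 1.1e-06). With depth-matched comparison cells 8 genes were lower and none higher.

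No receptor or Notch gene of the vessel growth list was called higher. Of 27 genes tested 13 were lower, none was higher and 14 missed the test. Kdr, a receptor for VEGF-A and VEGF-C, stood at 701, 803 and 756 CPM in proliferating LEC, against 1126, 1069 and 1064 CPM in comparison LEC (log2 fold change -0.62 ± 0.06 (SE), adjusted p = 5.9e-08), and the groups do not overlap. Dll4, a Notch ligand, stood at 82, 71.3 and 68.8 CPM, against 140.2, 113 and 118 CPM (log2 fold change -0.83 ± 0.09 (SE), adjusted p = 1.7e-07). In the cells with 10 or more UMIs Kdr averaged 552 ± 77.7 and Dll4 43.9 ± 7.97 CPM (SD, n = 3 libraries). The Notch target Hey1 averaged 36.7 against 59.6 CPM, and Calcrl, the receptor for adrenomedullin, 219 against 292 CPM. Both fell with the genes above, whereas the ligand Pgf missed the test at 152 against 146 CPM. In the cells with 2 to 9 UMIs 2 of these genes were lower (Flt4 and Igf1r). With cells that held more than 5 UMIs of markers of other cell types left out, a step added after the data were seen, which called 16.3% of all genes higher and 13.5% lower, 12 were lower and 2 (Adm and Pdgfb) higher.

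Of 15 niche ligands tested, by which lymphatic vessels act on the epithelium and on immune cells, 7 were lower, 1 was higher and 7 missed the test. Wnt2 stood at 69.5, 80.4 and 77.5 CPM in proliferating LEC, against 159, 155 and 154 CPM in comparison LEC (log2 fold change -1.14 ± 0.09 (SE), adjusted p = 9.9e-10). The spread within each class was small beside the gap. Rspo3, an R-spondin that lymphatic endothelium supplies to crypt stem cells, stood at 204, 248 and 282 CPM, against 302, 307 and 297 CPM (log2 fold change -0.40 ± 0.08 (SE), adjusted p = 7.9e-04), with library 3 of the proliferating cells close to the comparison LEC. In thinned cells, pooled over libraries, Wnt2 was seen in 30.2% of proliferating (24.7 to 36.1%) and 52.0% of comparison LEC (51.1 to 52.8%), and Rspo3 in 64.5% (58.4 to 70.3%) and 72.0% (71.3 to 72.8%). The intervals do not cover the spread between libraries. The unthinned shares were 54.0% and 63.9% for Wnt2 and 84.7% and 80.8% for Rspo3, so the order of the Rspo3 shares turns with depth. Il7, a survival factor of lymphocytes, averaged 88.5 against 163 CPM, the alarmin Il33 261 against 427 CPM and the guidance factor Ntn1 459 against 653 CPM. Gdf15, a stress cytokine, was the gene that was higher, at 39.8, 49.2 and 47.5 CPM, against 13.8, 25.7 and 23.1 CPM (log2 fold change 1.06 ± 0.15 (SE), adjusted p = 5.6e-06).

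Chemokines and genes of leukocyte traffic moved in both directions. Of 19 tested 5 were higher and 8 lower, and 6 and 6 once cells with UMIs of other cell types were left out. Ccl2, which attracts monocytes, stood at 619, 302 and 539 CPM in proliferating LEC, against 114, 132 and 122 CPM in comparison LEC (log2 fold change 1.88 ± 0.14 (SE), adjusted p = 9.6e-11). Library 2 was lowest among the proliferating cells but above all comparison sums. Its neighbour in function Ccl7 averaged 19.6 against 5.34 CPM, Cxcl10 163 against 57 CPM and Cx3cl1 16 against 5.34 CPM. Cxcl12 (41.5 against 62.4 CPM), the scavenging receptors Ackr2 (52.4 against 87.9 CPM) and Ackr3 (229 against 338 CPM) and the sphingosine-1-phosphate exporter Spns2 (98 against 134 CPM) were lower. Of 28 genes of antigen presentation and interferon response 2 were higher and 13 lower. Tap1, a peptide transporter, averaged 174 ± 47 against 107 ± 16.3 CPM (SD, n = 3 libraries each; log2 fold change 0.59, adjusted p = 3.5e-06), and the proteasome subunit Psmb9 333 against 258 CPM. The GTPase Gbp4 was lower, at 93.5 against 153 CPM, and class I genes H2-K1 and H2-D1 missed the test at 2956 against 2514 CPM and 2579 against 2536 CPM. With depth-matched comparison cells 3 of the 28 were higher and 8 lower.

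Immediate early and heat shock genes, which warm tissue digestion is known to induce, were lower almost throughout: 19 of 20 were lower and 1 was higher. Fos stood at 3758, 2828 and 3410.4 CPM in proliferating LEC, against 6058, 4469 and 5646 CPM in comparison LEC (log2 fold change -0.78 ± 0.05 (SE), adjusted p = 4.3e-11). The heat shock gene Hspa1b stood at 155, 247 and 267 CPM, against 565, 364 and 463 CPM, and its near-identical copy Hspa1a shares reads with it, so their split is uncertain. The exception was the chaperone Hsp90aa1, at 1054, 1079 and 1191 CPM, against 690.5, 500.4 and 709 CPM (log2 fold change 0.73 ± 0.07 (SE), adjusted p = 2.9e-08). The summed level of the list, pooled, was 34456 CPM at 0 UMIs of Mki67 and Top2a, 37593 at 1, 34984 at 2, 29420 at 3, 19733 at 4 to 9, 16924 at 10 to 29 and 20950 at 30 or more. At 2 UMIs library 1 lay below the comparison LEC (33747 against 37792 CPM), and libraries 2 and 3 lay above (30921 against 28210 CPM and 39885 against 35269 CPM). At 4 or more UMIs every library lay below. With depth-matched comparison cells the counts were again 19 lower and 1 higher. All cells of a library went through the same digestion, and whether the 2 classes responded to it differently was not tested.

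Lists of metabolism and translation had medians close to 0, from -0.15 for ribosomal proteins to 0.22 for ribosome biogenesis on the log2 scale. Of 17 glycolysis genes 4 were higher, 2 were lower and 11 missed the test, near the 15.7% higher and 14.7% lower over all genes. Pgk1 stood at 101, 104 and 134 CPM in proliferating LEC, against 53.2, 53.4 and 52.3 CPM in comparison LEC (log2 fold change 1.01 ± 0.10 (SE), adjusted p = 3.6e-08). Aldoa went the other way, at 114, 119 and 105 CPM, against 207, 233 and 202 CPM (log2 fold change -1.01 ± 0.08 (SE), adjusted p = 1.3e-09). Both were picked as the list's largest changes and do not stand for the pathway. Of 30 genes of oxidative phosphorylation 10 were higher, led by Cycs, cytochrome c (175 against 102 CPM), and 3 were lower, among them Uqcrh (376 against 426 CPM). Its classes overlap, and its call was lost with depth-matched comparison cells (adjusted p = 0.069) and without the block, where no gene of the list was lower. Of 20 tested genes of fatty acid and sterol handling 1 was higher, the lipid chaperone Fabp5 (17.3 against 5.37 CPM), and 4 were lower, with the thiolase Acaa2 the most changed (37.6 against 69.7 CPM). Of 26 ribosome biogenesis genes 10 were higher and none lower, led by Nop56 of the box C/D particle (103, 103 and 118 CPM, against 49.2, 44.2 and 51.7 CPM). Ribosomal protein genes did not follow: of 30, 1 (Rpsa, with many pseudogenes, whose call was lost without library 3 and without the block) was higher and 15 were lower, such as Rpl7 (872 against 1063 CPM). With depth-matched comparison cells 2 were higher and 4 lower, where 17.5% and 14.6% of all genes were.

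Of 18 tested genes of basement membrane and matrix 3 were higher and 7 lower, against 15.7% and 14.7% over all genes. Lamb2, a laminin chain, averaged 89.5 against 63.8 CPM, with a log2 fold change of 0.39 in all proliferating cells, 0.66 at 10 or more UMIs and -0.08 at 2 to 9. Its call was lost with cells thinned before the classes were called, which leaves fewer proliferating cells (adjusted p = 0.29). Timp3, a protease inhibitor of the matrix, was lower at 2239, 2108 and 1966 CPM, against 3766, 3363 and 3239 CPM. Of 15 tested junction genes 4 were lower. These included the gap junction gene Gja1, at 306, 235 and 233 CPM, against 379, 338 and 316 CPM, and the tight junction gene Cldn5 (774 against 1034 CPM). Gja1 was at 149, 174 and 193 CPM in cells with 10 or more UMIs, and at 371 CPM, pooled, in those with 2 to 9. Of 6 tested nuclear-retained RNAs 3 were lower, Malat1, Neat1 and Gm42418, the last at 50195, 78695 and 88131 CPM, against 63272, 94818 and 102890.0 CPM, where libraries differed more than classes.

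Outside all lists, among genes at 20 CPM or more in the higher class, the 5 largest rises were in Pimreg, Sapcd2, Mxd3, Hist1h2af and Pclaf. Pimreg, a regulator of anaphase, averaged 144 against 0.0601 CPM, Sapcd2 27 against 0.01 CPM, Mxd3 87.7 against 0.07 CPM, Hist1h2af 30.8 against 0.0426 CPM and Pclaf, which binds PCNA, 289 against 0.421 CPM. The 5 largest falls were in genes of smooth muscle contraction and cytoskeleton: Actg2, Des, Myh11, Acta2 and Myl9. Acta2 stood at 0.00, 7.03 and 5.54 CPM in proliferating LEC, against 10.1, 109 and 20 CPM in comparison LEC, and library 2 was highest in both. These UMIs lay in few cells. Of the comparison LEC 22 (1, 13 and 8 by library) held 20 or more UMIs of Acta2, Tagln, Myh11, Des and Actg2 and 84.0% of all such UMIs in the class, and 0 proliferating cells did. With cells that held more than 5 UMIs of other cell types' markers left out, none of these 5 falls passed the test. These markers include Actg2, Des, Myh11 and Acta2 themselves, so the step takes out their UMIs by design and is no test of their falls. It left 58 of the 81 proliferating cells of library 2.

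Markers of other cell types were also summed. The 8 blood endothelial markers stood at 33.6, 76.4 and 42.7 CPM in proliferating LEC, against 22.1, 43.1 and 20.8 CPM in comparison LEC, higher in each library. Of 5 tested 1 was higher, and 2 once cells with more than 5 UMIs of other cell types were left out. The 9 epithelial markers summed to 17.2 to 82.4 CPM against 33.2 to 121 CPM, the 6 fibroblast markers to 0 to 11.1 CPM against 3.82 to 19.2 CPM with Pdgfra at 0, and 6 T or innate lymphoid markers to 0 to 3.16 CPM against 0.0888 to 1.15 CPM with Cd3e, Cd3g, Trac and Gzma at 0. B or plasma cell markers summed to 10.9, 173 and 40.3 CPM, against 24.96, 597 and 62.6 CPM, and Paneth or goblet markers to 21.1, 94.4 and 27.7 CPM, against 63.4, 207 and 72.3 CPM, so library 2 was highest in both classes. Myeloid markers summed to 9.37, 124 and 16.6 CPM in proliferating LEC, against 11.5, 23.3 and 14.1 CPM in comparison LEC. The library 2 value came from 1 cell with 104 of its 123 myeloid UMIs and 3 Mki67 and Top2a UMIs, and it was 19.3 CPM without that cell. The 4 myeloid markers called higher were not called once such cells were left out. That step counts these markers itself, so the loss is no test of them. With those cells left out 70 of the 75 named genes with a test kept their direction and call, and the other 5 were the smooth muscle genes above.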

How the data were processed

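Gene-by-barcode UMI counts of 3 libraries from sorted mouse small intestine were used as deposited. The authors made these counts with bcl2fastq 2.2 and Cell Ranger 6.1.2 on mm10, per the submitters' processing notes, and per the labels the chemistry was a 3′ droplet kit. The annotation release and the cell filter are not given in the sources used here. All 32285 genes of the files were kept, and the libraries held 58857545, 69231794 and 74571090 UMIs. Counts were raw, with no normalization, and no row lacked a gene.

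Members and gene lists were chosen with earlier results of these data known. Counts were summed per library and class, scaled to CPM and tested with edgeR 4.0.16 (R 4.3.3; TMM, filterByExpr, quasi-likelihood test, library as a block), with Benjamini-Hochberg adjustment over all 12814 genes at 0.05. Library pairs the sums since each library is 1 run of 1 animal pool and gives both classes. On simulated data 64 of 99 genes changed by 1 on the log2 scale and 88 of 98 changed by 2 were recovered, with 10 unchanged genes called. Cells were handled in scanpy 1.11.5 and python 3.11.15. Alternatives were DESeq2 1.42.0, its size factors, no filter, no block, each library left out, other limits on cells, thinning, depth matching, the highest Scrublet scores left out, and, added after the data were seen, 10 or more UMIs, 2 to 9 UMIs, and cells with over 5 UMIs of other cell types left out.

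Named genes passed the test, had 1 sign throughout the 3 libraries and reached 20 CPM in the higher class: per cycle list the 3 largest rises and the largest fall, per other list the largest of each, outside the lists the 5 largest of each, and a fixed set (Mki67, Top2a, Prox1, Flt4, Pdpn, Ccl21a, Rspo3, Wnt2, Cdkn1a, Cdkn1b, Cdkn1c, Ccnd1, Kdr and Klf2). A few genes that meet this rule are not reported here. Other genes in the text were picked after their values were seen. Intervals are exact binomial and cover counting error only, and those of thinned cells pool the 3 libraries. Promoters come from RefSeq on GRCm38.p6, matched by symbol for 9831 of 12814 tested genes.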

Additional observations from a re-analysis of the deposited data

How the results depend on the processing

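Of 75 named genes with a test, 53 kept their direction and their side of the threshold under all 19 settings in which they could be fitted, and all 75 did under DESeq2 and with 10 or more Mki67 and Top2a UMIs. Most were named for large changes that passed the main test, so they were likely to keep their calls. Over all called genes that could be fitted, fewer were called again with the same sign. These were 2749 of 3891 under DESeq2, 3508 of 3871 with 10 or more UMIs and 2371 of 3790 with thinned cells. The count of genes higher in proliferating LEC was 1278 with thinned cells and 437 with 2 to 9 UMIs, against 2013, and the count of genes lower in proliferating LEC was 1139 with DESeq2 and 420 with 2 to 9 UMIs, against 1878. The share of LEC that are proliferating was 4.23% with 1 or more UMIs, 1.16% with 3 or more, 0.739% with 10 or more and 0.844% with 2 to 9. Leaving out 1 library gave 1621 to 1887 genes higher, 1395 to 1722 lower and shares of 1.47% to 1.75%. With 2 to 9 UMIs, where 52 of 65 named genes kept their call, Lamb2 (-0.080) changed sign on the log2 scale. Calls were lost there for Pttg1, Cdkn2c, Dll4, Tap1, Hsp90aa1, Nop56, Rpl7, Gja1, Cdkn1a, Cdkn1b, Ccnd1 and Kdr. With 1 or more UMIs the log2 fold change of Actg2 (0.23), the log2 fold change of Des (0.079) and that of Acta2 (0.15) changed sign. In the cells with 1 UMI Acta2, Tagln, Myh11, Des and Actg2 summed to 15.3, 1041 and 17.0 CPM by library. Of these cells 2 held 20 or more UMIs of the smooth muscle genes, and the cause of the sign change was not tested. Without the replicate block that pairs the sums of a library, 1818 genes were higher and 1450 lower, and 9 of the 75 calls were lost: Uqcrh, Rpsa, Gm42418, Actg2, Des, Myh11, Acta2, Myl9 and Klf2. The 274 cells give 3 sums, so genes of a few CPM rest on few UMIs in a library.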

Other observations

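Outside the lists, and picked after their values were seen, 3 genes differed in proliferating LEC. Slfn5, an interferon-regulated Schlafen protein, stood at 110.1, 154 and 107 CPM in proliferating LEC, against 381, 316 and 307 CPM in comparison LEC (log2 fold change -1.54 ± 0.10 (SE), adjusted p = 1.7e-11, edgeR), and at 32.3, 67.6 and 29.4 CPM in cells with 10 or more Mki67 and Top2a UMIs. Every proliferating sum lay below every comparison sum. Igfbp5, which binds insulin-like growth factors, stood at 359, 444 and 385 CPM, against 869, 899 and 707 CPM (log2 fold change -1.15 ± 0.07 (SE), adjusted p = 1.5e-11). Vim, the intermediate filament vimentin, was higher, at 2767, 2681 and 2185 CPM, against 1328, 1423 and 1285 CPM (log2 fold change 0.82 ± 0.06 (SE), adjusted p = 2.0e-10), and averaged 2986 ± 305 CPM (SD, n = 3 libraries) in cells with 10 or more UMIs.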
